A study of Mus musculus with 3 samples.

Results

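Nodal signalling was examined through 10 genes: the ligands Nodal and Gdf3, the co-receptor Tdgf1 (Cripto), the receptors Acvr1b and Acvr2b, the secreted inhibitors Lefty1, Lefty2 and Cer1, the signal transducer Smad2 and its nuclear partner Foxh1. They were listed by symbol, and every array probe whose RefSeq accession belongs to one of them was taken, which gave 13 probes of 39429 and 10 genes of 21153 with a named probe. Gdf3 had 2 probes, Tdgf1 had 3, and the other genes had 1 each. Each of 3 two-colour Agilent arrays set RNA of Hopx-/- mouse embryoid bodies grown with XAV939 at 12.5 µM against RNA of Hopx+/- embryoid bodies without a stated inhibitor, both at day 8 of cardiac differentiation. Embryoid bodies are clumps in which embryonic stem cells differentiate. Here they were made in hanging drops from lines derived from blastocysts and kept on feeder cells. The medium held VEGF, bFGF and FGF10, and the labels list neither activin nor Nodal among its additions. XAV939 inhibits tankyrase, which stabilises axin and lowers β-catenin. Genotype and inhibitor changed together, so their effects cannot be told apart. The labels call the arrays biological replicates and do not say how many stem cell lines they came from, so the p-values measure the spread between these 3 comparisons. The samples are bulk RNA, in which fewer cells of a type and less RNA per cell cannot be told apart.

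Nodal is a secreted factor of the TGF-β family that maintains the epiblast, induces mesendoderm in the primitive streak and later sets left-right asymmetry. It binds activin receptors, type II (Acvr2b) and type I (Acvr1b), with Tdgf1 as co-receptor, and the activated type I receptor phosphorylates Smad2, which enters the nucleus and binds DNA with Smad4 and Foxh1. The pathway switches on Nodal itself and its own inhibitors Lefty1 and Lefty2. The Lefty proteins block the co-receptor and receptor, and Cer1 binds the ligand.

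The sign of the ratio rests on the following. The labels place the null RNA in Cy5 on all 3 arrays, but across tested probes the red over green ratios of replicate 3 ran against those of replicate 1 (r = -0.878) and replicate 2 (r = -0.908), while replicates 1 and 2 had r = 0.965. The sign of replicate 3 was therefore reversed, which matches the authors' processed table. Positive values below mean higher in the null cultures with inhibitor, a direction that is likely and not settled; with the opposite direction each sign given here turns. Hopx had 2 probes, and the brightest tested one was used. On it Hopx lay at -2.65, -2.75 and -2.73 on the log2 scale (mean -2.71 ± 0.05, SD, n = 3), lower in the channel taken as null. For replicates 1 and 2 this is the channel labelled null; for replicate 3 it is the other one, so as labelled Hopx is higher in the null there. Whether the Hopx probe used lies in the deleted part was not examined, and the other Hopx probe is not reported here. The share of probes well above background was 56.6% to 68% over arrays and dyes. The 7 heart muscle markers listed were well above background in both groups on every array and all fell.

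The sequences around the transcription starts show the members at hand. RefSeq promoters (build GRCm38.p6, 250 bases before to 50 after the start) matched 5 of the 10 genes, and 4 are printed, for Nodal, Cer1 and Tdgf1, which rose, and for Acvr2b, which did not pass the test. Capitals mark the letters CAGAC, a short element that Smad proteins bind, and TGTNNATT, the core that FOXH1 binds, searched on both strands, with no overlap between marked stretches. Nodal lies on the plus strand at chr10:61417722-61418021, Cer1 on the minus strand at chr4:82885102-82885401, Tdgf1 on the minus strand at chr9:110946109-110946408 and Acvr2b on the plus strand at chr9:119401928-119402227.
Nodal: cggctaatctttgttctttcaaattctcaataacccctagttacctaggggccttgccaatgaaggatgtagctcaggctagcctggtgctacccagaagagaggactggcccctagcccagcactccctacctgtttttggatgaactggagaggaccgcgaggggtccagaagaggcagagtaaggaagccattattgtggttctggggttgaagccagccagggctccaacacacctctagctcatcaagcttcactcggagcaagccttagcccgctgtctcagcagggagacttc
Cer1: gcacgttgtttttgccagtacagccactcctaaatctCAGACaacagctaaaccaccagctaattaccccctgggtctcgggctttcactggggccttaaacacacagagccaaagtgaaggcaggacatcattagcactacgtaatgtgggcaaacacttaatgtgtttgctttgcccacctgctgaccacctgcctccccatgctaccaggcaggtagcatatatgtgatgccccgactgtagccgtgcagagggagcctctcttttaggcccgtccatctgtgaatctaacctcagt
Tdgf1: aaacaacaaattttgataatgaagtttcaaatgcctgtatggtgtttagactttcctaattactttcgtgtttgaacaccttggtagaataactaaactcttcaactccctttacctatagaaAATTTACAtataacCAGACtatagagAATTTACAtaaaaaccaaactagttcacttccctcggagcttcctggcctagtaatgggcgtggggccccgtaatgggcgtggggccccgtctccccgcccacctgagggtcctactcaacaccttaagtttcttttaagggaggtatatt
Acvr2b: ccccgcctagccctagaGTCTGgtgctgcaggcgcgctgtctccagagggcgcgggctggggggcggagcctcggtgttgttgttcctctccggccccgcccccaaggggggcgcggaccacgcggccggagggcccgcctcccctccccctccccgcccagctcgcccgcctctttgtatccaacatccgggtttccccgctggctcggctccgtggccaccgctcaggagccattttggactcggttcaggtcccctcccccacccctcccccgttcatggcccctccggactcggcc

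The FOXH1 letters occurred 2 times in the Tdgf1 window, beginning 127 and 101 bases before the start, with 1 match of the Smad letters between them at 113. The Smad letters also occurred 1 time in Cer1, 213 bases before the start, and 1 time in Acvr2b, 233 bases before it. The Nodal window held neither. Of all 32851 promoters of the same length, 12.2% held the FOXH1 letters and 49.6% the Smad letters, so a match is common. The Smad palindrome GTCTAGAC (0.2% of all promoters) and the TCF/LEF letters CTTTGA (16% of all) were in none of the 5 windows. The windows of the members that rose had a GC content of 54% (Nodal), 51.7% (Cer1) and 41.7% (Tdgf1), with 5, 6 and 7 CG dinucleotides. Those of the receptors had 73.3% (Acvr2b) and 79.7% (Acvr1b), with 27 and 51 CG dinucleotides. The median of all promoters was 52.7% and 7.

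Of the 10 genes, 7 rose in the null cultures with inhibitor, none fell and 3 did not pass. Those that rose encode both ligands, the co-receptor, all 3 inhibitors and Foxh1, and those that did not pass are the receptors Acvr1b and Acvr2b and the transducer Smad2. All 10 were bright enough to be tested. Cer1 was well above background in 3 of 3 null channels and 2 of 3 heterozygous ones. On the remaining array it therefore met the filter through the null group alone. Where both channels had to be well above background, Cer1 was not tested and 6 members rose, with 4242 of 13173 genes higher. A gene passed at an adjusted p below 0.05 in limma's moderated test of the mean log2 ratio of the 3 arrays against 0, adjusted over the 14705 genes tested. Of all these genes 64.5% passed, 31.5% as higher and 33% as lower, and the members' count is to be read against these shares. The median ratio was 0.83 over the 10 members and -0.01 over all tested genes. With median centring in place of loess, 60% of the called genes were higher, against 48.9% here. The median of all genes moved from -0.011 to 0.096. Of the 14705 genes 3034 were higher, against 4635 here, and 5 members rose. With the local backgrounds that the scanner software marks as outliers kept, 5 members rose, and 2667 of the 14705 genes were higher. With replicate 3 used as labelled, no gene passed by limma (0 members, and over all genes 13 higher and 27 lower at an unadjusted p below 0.05).

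**Figure D1:**
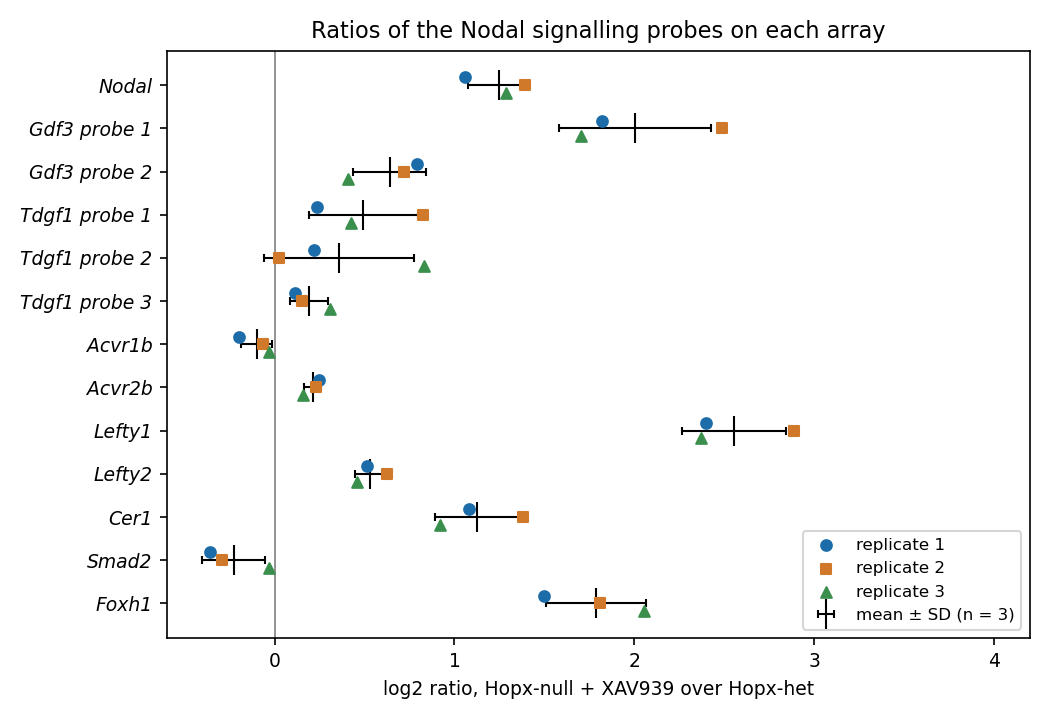
The log2 ratio of null plus XAV939 over het (x axis) for each of the 13 probes (rows), with 1 symbol per array and the mean ± SD over 3 arrays in black. Lefty1 lies farthest to the right with ratios from 2.37 to 2.89, while Acvr1b and Smad2 lie at or just below 0.

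Lefty1 had the largest ratio of the members. Its log2 signal was 9.82, 10.04 and 9.70 in the null cultures and 7.42, 7.15 and 7.32 in the heterozygous ones (replicates 1 to 3, each channel after normalization). The groups stood far apart on every array. The ratios of 2.40, 2.89 and 2.37 gave a 5.87-fold rise (2.55 ± 0.29, SD, n = 3 here and below; limma adjusted p = 7.4e-07). Of tested genes, 0.374% had a higher ratio. The size moved with the background treatment, from 1.67 with marked backgrounds kept to 3.33 with the Feature Extraction log ratio, and Lefty1 passed in both.

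Lefty2, the other Lefty gene, which in the embryo is made mainly by nascent mesoderm, rose much less. Its log2 signal was 8.46, 8.72 and 8.58 in the null cultures and 7.95, 8.09 and 8.12 in the heterozygous ones, with no overlap. The ratios were 0.51, 0.63 and 0.46, a 1.45-fold rise (0.53 ± 0.09; limma adjusted p = 0.00147). Within each array the ratio of Lefty1 exceeded that of Lefty2 by 1.89, 2.26 and 1.92, a mean difference of 2.02 ± 0.21 that was not tested. Lefty2 did not pass with marked backgrounds kept (0.32, adjusted p = 0.0646) and also not when arrays were centred on their median (0.58, adjusted p = 0.0772).

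The 2 Lefty genes lie near each other on chromosome 1 in RefSeq. Tmem63a, next to Lefty1, lay at 0.00 ± 0.25 (limma adjusted p = 0.977), and Ephx1, the epoxide hydrolase gene beyond it, fell (-0.79 ± 0.10; adjusted p = 0.000147). Sde2, the nearest protein-coding gene past Lefty2, rose (0.40 ± 0.34; adjusted p = 0.0285). On each array the ratio of Lefty1 was well above those of Tmem63a, Ephx1 and Sde2.

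Cer1, which encodes Cerberus and marks anterior endoderm and visceral endoderm, rose 2.18-fold. Its log2 signal was 7.51, 7.67 and 7.17 in the null cultures and 6.43, 6.29 and 6.25 in the heterozygous ones, where 2 of 3 arrays had it well above background. The ratios were 1.08, 1.38 and 0.92 (1.13 ± 0.24; limma adjusted p = 4.36e-05). Its size depended on how the dim signal was treated: it was 2.90 with the Feature Extraction log ratio, 0.68 in the authors' processed values and 0.47 with marked backgrounds kept, where it did not pass (adjusted p = 0.102).

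Nodal itself rose 2.37-fold. The log2 signal was 10.63, 10.69 and 10.63 in the null cultures and 9.57, 9.30 and 9.34 in the heterozygous ones, so the null values were nearly level and apart from the others. The ratios were 1.06, 1.39 and 1.29 (1.25 ± 0.17; limma adjusted p = 1.54e-05), and 4.77% of tested genes had a higher one. On each array the ratio of Lefty1 exceeded that of Nodal, by 1.34, 1.50 and 1.09 (1.31 ± 0.21, not tested).

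Gdf3, a related ligand of pluripotent cells and the early embryo, rose 4.01-fold on its brighter probe. The log2 signal was 10.30, 10.82 and 10.38 in the null cultures and 8.48, 8.33 and 8.68 in the heterozygous ones. The ratios of 1.82, 2.49 and 1.70 all lay far above 0, with replicate 2 the highest (2.00 ± 0.42; limma adjusted p = 7.11e-06). The other Gdf3 probe also rose, less, at 0.79, 0.72 and 0.41 (0.64 ± 0.20; adjusted p = 0.00116 over all probes). The probes differed by 1.03, 1.77 and 1.29, so the direction is shared and the size is not. The mean over both was 1.32.

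**Figure D2:**
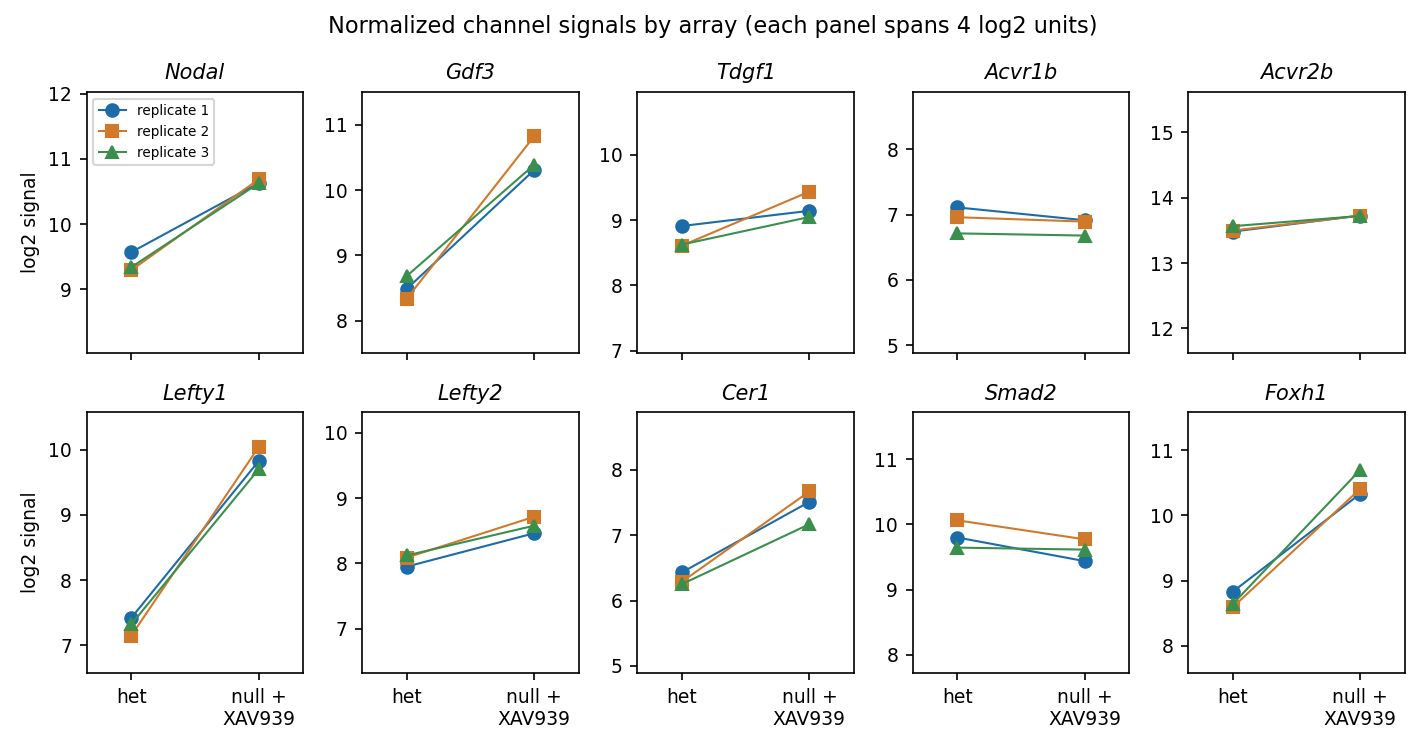
Normalized log2 signal (y axis, 4 log2 units in every panel) in the heterozygous and the null plus XAV939 channel for the brightest probe of each member, with a line joining the channels of 1 array. The steepest lines are those of Lefty1, Gdf3 and Foxh1, while the lines of Acvr1b, Acvr2b and Smad2 are nearly flat.

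Tdgf1, the co-receptor that Nodal needs and an epiblast gene, rose weakly. On its brightest probe the log2 signal was 9.14, 9.44 and 9.05 in the null cultures and 8.91, 8.61 and 8.63 in the heterozygous ones. The ratios were 0.23, 0.83 and 0.42 (0.49 ± 0.30, 1.41-fold; limma adjusted p = 0.0084). Replicate 2 carried the call: without replicate 2 the ratio was 0.33 and did not pass (adjusted p = 0.119). It did not pass with median centring either (0.59, adjusted p = 0.0969).

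The other Tdgf1 probes did not pass. The second gave 0.22, 0.03 and 0.83 (0.36 ± 0.42; adjusted p = 0.069 over all probes) and the third 0.11, 0.15 and 0.31 (0.19 ± 0.10; adjusted p = 0.133). Without replicate 2, where the brightest probe lost its call, the second probe passed (0.53, adjusted p = 0.0293). The second (0.40, adjusted p = 0.0034) and the third (0.21, adjusted p = 0.0147) passed with the slide as a block, and the third on the scanner software's own ratio (0.64, adjusted p = 0.0404). With the slide block more of all genes were called too, 5670 higher and 5988 lower, against 4635 and 4849 in the reported fit. All 3 probes were positive on all 3 arrays, and the highest array was not the same for the 3 probes. RefSeq lists 2 pseudogenes of Tdgf1, whose share in these signals was not tested. Over all 24376 probes tested, 28.7% were higher, and 8 of the 13 member probes were.

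Foxh1, the forkhead factor that carries Smad2 and Smad4 to Nodal target genes, rose 3.45-fold. Its log2 signal was 10.33, 10.41 and 10.70 in the null cultures and 8.83, 8.59 and 8.64 in the heterozygous ones. The ratios were 1.50, 1.81 and 2.05, so replicate 3 was the highest here and not replicate 2 (1.79 ± 0.28; limma adjusted p = 4.23e-06). In RefSeq Foxh1 overlaps Kifc2, a kinesin gene, which fell (-0.94 ± 0.11; adjusted p = 5.4e-05).

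Smad2, the receptor-activated transducer, had log2 signals of 9.44, 9.77 and 9.61 in the null cultures and 9.80, 10.06 and 9.64 in the heterozygous ones, and the groups overlapped. The ratios were -0.36, -0.29 and -0.03 (-0.23 ± 0.17, with a 95% interval from -0.47 to 0.02; limma adjusted p = 0.0938). Replicate 3, the array whose sign was reversed, was nearest to 0. Without replicate 3 Smad2 passed as lower (-0.33, adjusted p = 0.00757), as it did with the slide as a block (-0.19, adjusted p = 0.0226). Both of these fits also called more of all genes than the reported one.

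The type I receptor gene Acvr1b had log2 signals of 6.91, 6.89 and 6.68 in the null cultures and 7.11, 6.96 and 6.71 in the heterozygous ones. The groups overlapped, and the ratios of -0.20, -0.07 and -0.03 did not pass (-0.10 ± 0.09, interval from -0.33 to 0.13; limma adjusted p = 0.409). The type II receptor gene Acvr2b had signals of 13.73, 13.73 and 13.72 against 13.48, 13.50 and 13.56. Its ratios of 0.25, 0.23 and 0.16 were positive on all arrays and did not pass (0.21 ± 0.05, interval from -0.01 to 0.43; adjusted p = 0.0875). In the authors' values they were -0.25, -0.02 and 0.47 on replicates 1 to 3 (mean 0.07, limma adjusted p = 0.755). Acvr2b passed without replicate 3 (0.24, adjusted p = 0.0317) and with the slide as a block (0.20, adjusted p = 0.0101), fits that also called more of all genes. In the reported fit the interval limit farthest from 0 among the 3 members that did not pass was -0.474, for Smad2. Other settings went beyond it: with median centring the Acvr2b ratio itself was 0.53 (limma adjusted p = 0.123).

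**Figure D3:**
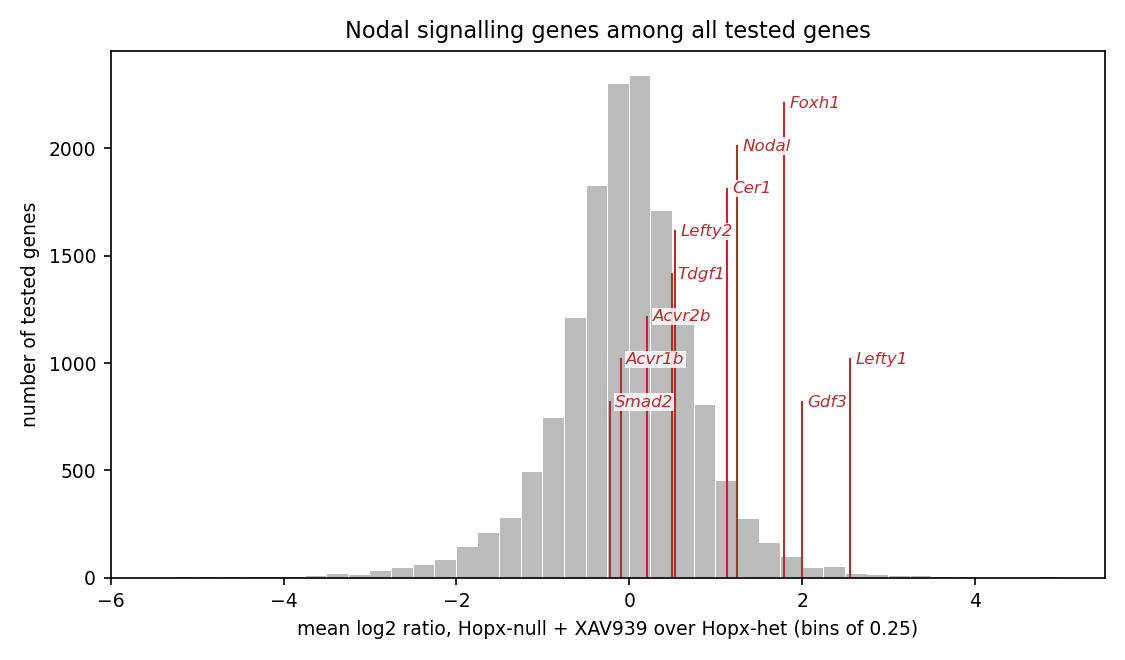
Number of tested genes (y axis) by mean log2 ratio in bins of 0.25 (x axis), with a line at the ratio of each member, whose height has no meaning. Lefty1, Gdf3 and Foxh1 lie in the upper tail, where 0.374%, 1.08% and 1.65% of tested genes have a higher ratio, and the receptors and Smad2 lie in the body of the distribution.

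Beyond the members, a list of 38 further genes of the pathway, all with a probe, was examined by role. Of 35 tested, 10 rose, 16 fell and 9 did not pass, where 31.5% of all tested genes rose and 33% fell. Their median was -0.26. Many of the smaller changes below lost their call in some settings, which are given by role. Among the ligands Gdf1, which partners Nodal in left-right patterning, rose (1.39, 1.63 and 1.70; 1.58 ± 0.16; limma adjusted p = 3.75e-06). Gdf1 shares its transcript with Cers1, a ceramide synthase gene, and the signal cannot be assigned to one of them. The activin subunit genes Inhba (0.24 ± 0.17; adjusted p = 0.0817) and Inhbb (-0.26 ± 0.14; adjusted p = 0.0507) did not pass. Both passed without replicate 3, Inhba as higher (0.32, adjusted p = 0.0103) and Inhbb as lower (-0.29, adjusted p = 0.0239).

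Cfc1 (Cryptic), the co-receptor related to Tdgf1 and used in lateral mesoderm, fell. Its ratios were -2.23, -2.25 and -1.73 (-2.07 ± 0.30; limma adjusted p = 2.2e-06), so the co-receptor genes Cfc1 and Tdgf1 had opposite signs on every array. Acvr2a, the other type II receptor gene, lay at -0.34 ± 0.33 (adjusted p = 0.0506), and passed as lower without replicate 1 (-0.44, adjusted p = 0.0428). Acvr1c (ALK7) was not tested. On the brighter of its 2 probes, 0 of 3 null channels and 2 of 3 heterozygous channels were well above background. The heterozygous mean, which includes the channel not well above background, was 1.19-fold above the detection limit of the null group. This is a rough estimate without an error.

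Of the proprotein convertase genes whose products cleave the Nodal precursor, Pcsk6 (PACE4) rose (0.58 ± 0.27; adjusted p = 0.00268) and Furin fell (-0.48 ± 0.06; adjusted p = 0.00231). Of 4 further genes of extracellular inhibitors, 3 fell. Fst (follistatin, which binds activin) lay at -1.90 ± 0.23 (adjusted p = 2.1e-06), the inhibin subunit gene Inha at -0.72 ± 0.33 and Fstl3 at -0.55 ± 0.10. The Cerberus relative Dand5, chosen for mention after its value was seen, rose (0.37 ± 0.23; adjusted p = 0.0208). Pcsk6, Furin, Inha, Fstl3 and Dand5 did not pass with marked backgrounds kept or with median centring, and Dand5 also not in the authors' values (0.20) or without replicate 2 (0.44, adjusted p = 0.0502). Among the inhibitors Lefty1 and Cer1 thus rose while Fst fell.

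Among the transducers Smad3, the close relative of Smad2, fell (-0.48, -0.50 and -0.75; -0.58 ± 0.15; limma adjusted p = 0.0012) on its brighter probe, and its other probe did not pass (-0.19 ± 0.13). The common partner Smad4 lay at 0.04 ± 0.39 (adjusted p = 0.827), with replicate 3 at -0.41 against 0.28 and 0.25; without replicate 3 it passed as higher (0.27, adjusted p = 0.02). Zfyve9 (SARA), which presents Smad2 to the receptor, fell (-0.53 ± 0.16; adjusted p = 0.00206). Smad3 did not pass with median centring (-0.30, adjusted p = 0.408), and Zfyve9 neither there nor with marked backgrounds kept. Of 6 nuclear cofactors 2 rose, the repressor genes Tgif1 (0.73 ± 0.26) and Tgif2 (0.50 ± 0.33), and 1 fell. This was Drap1, which restrains Foxh1, at -0.39 ± 0.27 (adjusted p = 0.0209). The call of Drap1 was lost in 6 settings beside that with replicate 3 as labelled, among them without replicate 1 (-0.32, adjusted p = 0.121), without replicate 2 (-0.30, adjusted p = 0.178) and with median centring (-0.08, adjusted p = 0.812), and its channel levels overlapped. Tgif2 did not pass with marked backgrounds kept, in the authors' values or with median centring.

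The feedback genes moved both ways. Pmepa1, a TGF-β-induced gene whose product sequesters Smad2 and Smad3, rose (1.51, 1.99 and 1.58; 1.69 ± 0.26; limma adjusted p = 4.9e-06) on both of its probes; it was 0.95 with marked backgrounds kept and 2.58 with the Feature Extraction log ratio. The inhibitory Smad7 (-1.11 ± 0.26; adjusted p = 5.73e-05) and Nedd4l, a ubiquitin ligase of activated Smad2 (-1.18 ± 0.11; adjusted p = 1.51e-05), fell. Smurf2 did not pass on its brightest probe (-0.17 ± 0.24, limma adjusted p = 0.244). Its other tested probes fell (-0.92 ± 0.20 and -0.26 ± 0.04), as did the mean over its probes (-0.45, adjusted p = 0.002).

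Targets described for Nodal in the embryo held 4 that rose and 6 that fell of 10 tested. Otx2, a gene of the epiblast and anterior endoderm, gave 2.72, 2.99 and 2.64 (2.78 ± 0.19; adjusted p = 2.86e-07). The other 3 that rose, chosen for mention after their values were seen, were the streak genes Eomes (0.41, 1.07 and 1.55; 1.01 ± 0.58), Gsc (0.58 ± 0.12) and Lhx1 (0.30 ± 0.19). With marked backgrounds kept Eomes (0.69, adjusted p = 0.148), Gsc (0.29, adjusted p = 0.22) and Lhx1 (0.16, adjusted p = 0.301) did not pass. Gsc and Lhx1 did not pass in the authors' values (0.31, adjusted p = 0.0642, and 0.06, adjusted p = 0.76) or with median centring. Lhx1 also lost its call without replicate 2 (0.23, adjusted p = 0.275). With the Feature Extraction log ratio Gsc was at 1.94 and Lhx1 at 0.92. Gsc was well above background in 3 of 3 null channels and 2 of 3 heterozygous ones, so its filter was met through the null group. The endoderm factors Foxa2 (-4.27 ± 0.14; adjusted p = 7.64e-08) and Sox17 (-2.53 ± 0.10; adjusted p = 2.86e-07) fell by the most. Mixl1 was at background in both groups on all 3 arrays, and T, the brachyury gene, was detected in 2 null and 1 heterozygous channels, so neither was tested.

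**Figure D4:**
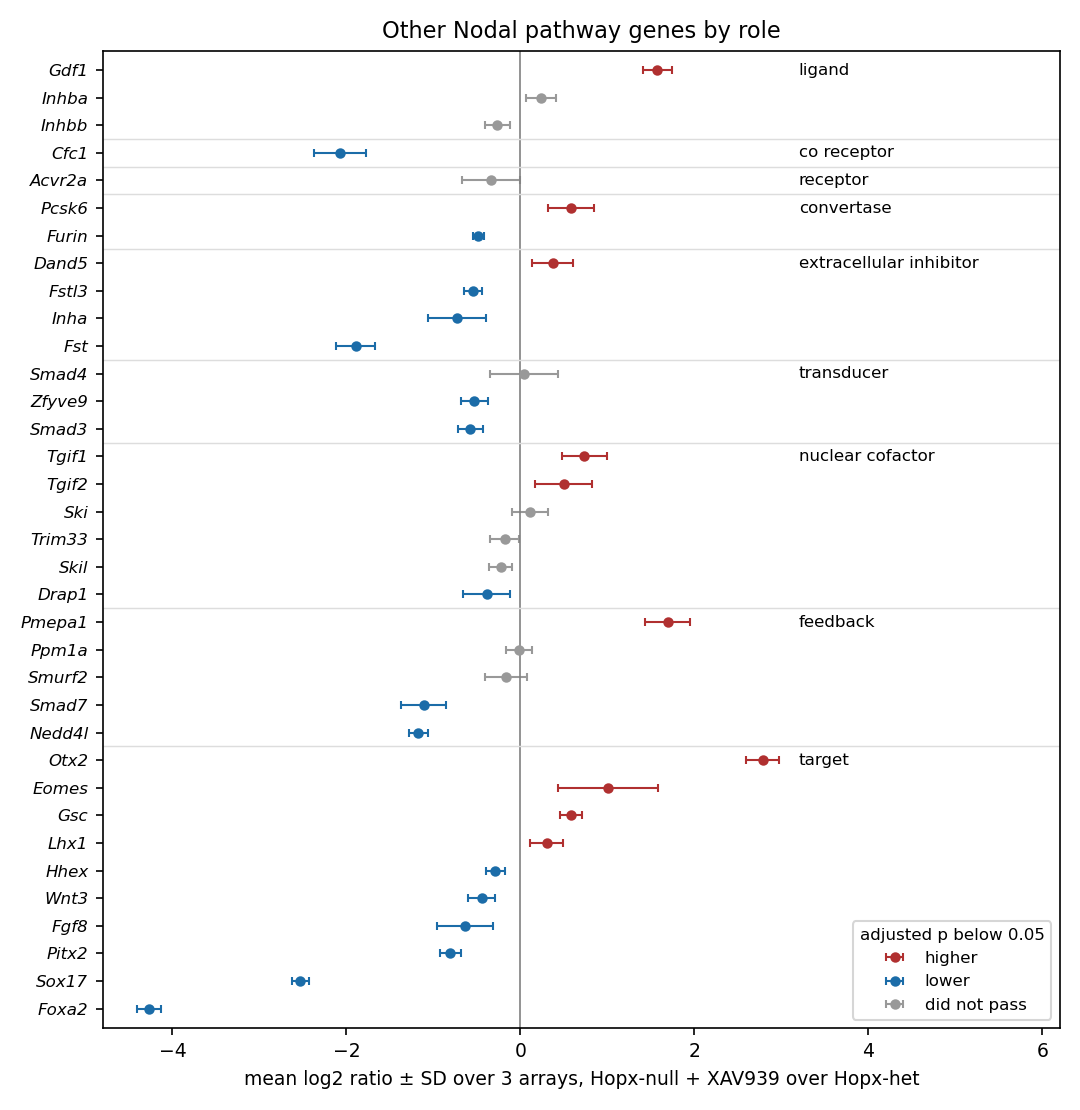
Mean log2 ratio ± SD over 3 arrays (x axis) of the 35 other pathway genes tested, grouped by role and coloured by call. Gdf1, Pmepa1, Otx2 and Eomes lie above 1, while Cfc1, Fst, Sox17 and Foxa2 lie below -1.5.

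Markers of several cell types moved in these cultures beside the members, and their part in the members' ratios was not tested. All 8 epiblast markers rose, led by Pou3f1 (4.46 ± 0.28) and Fgf5 (3.99 ± 0.40), and the summed signal of the list was 96021 to 132013 in the null cultures against 12800 to 17987 in the heterozygous ones. Nanog rose on 2 of its 3 tested probes and fell on 1 (-0.46 ± 0.18). All 7 visceral endoderm markers fell, led by Cubn (-5.54 ± 0.61) and Rbp4 (-5.18 ± 0.36), with sums of 4787 to 10149 against 133380 to 150529. Cer1 and Lefty1, which anterior visceral endoderm also expresses, therefore rose while the listed visceral endoderm markers fell.

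Of 6 definitive endoderm markers 5 fell, led by Foxa1 (-4.33 ± 0.10) and Foxa2, and the sums were 5200 to 7032 against 32810 to 36255. Cxcr4 did not pass (-0.16 ± 0.23, limma adjusted p = 0.266). The 7 heart markers had sums of 46779 to 60764 against 152481 to 169348, led by Myh7 (-2.63 ± 0.36) and Myh6 (-2.32 ± 0.10). The 6 streak and mesoderm markers had sums of 854 to 1032 against 945 to 1073, which overlap, with 2 higher, 2 lower and 2 not tested, led by Eomes (1.01 ± 0.58) and Tbx6 (-0.97 ± 0.03). Besides Eomes, the streak marker that rose was well above background in 1 of 3 heterozygous channels. Of 6 neural markers 2 rose, Tubb3 (3.48 ± 0.25) and Nes (2.60 ± 0.33), and the sums were 10122 to 11291 against 1748 to 2158. Nes had the highest signal of the list in both groups (mean log2 13.05 null, 10.45 heterozygous), so the sums are mostly its signal. Sox1 (0.32 ± 0.31, limma adjusted p = 0.0543) and Dcx (0.07 ± 0.15, adjusted p = 0.586) did not pass. Pax6 and Neurog2 were detected in 1 null channel and 0 heterozygous channels each. Of 6 fibroblast markers, which feeder cells would carry, 4 fell and 1 rose, with sums of 11141 to 15051 against 23195 to 33521, led by Col1a1 (-2.81 ± 0.38) and Postn (-2.14 ± 0.49).

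**Figure D5:**
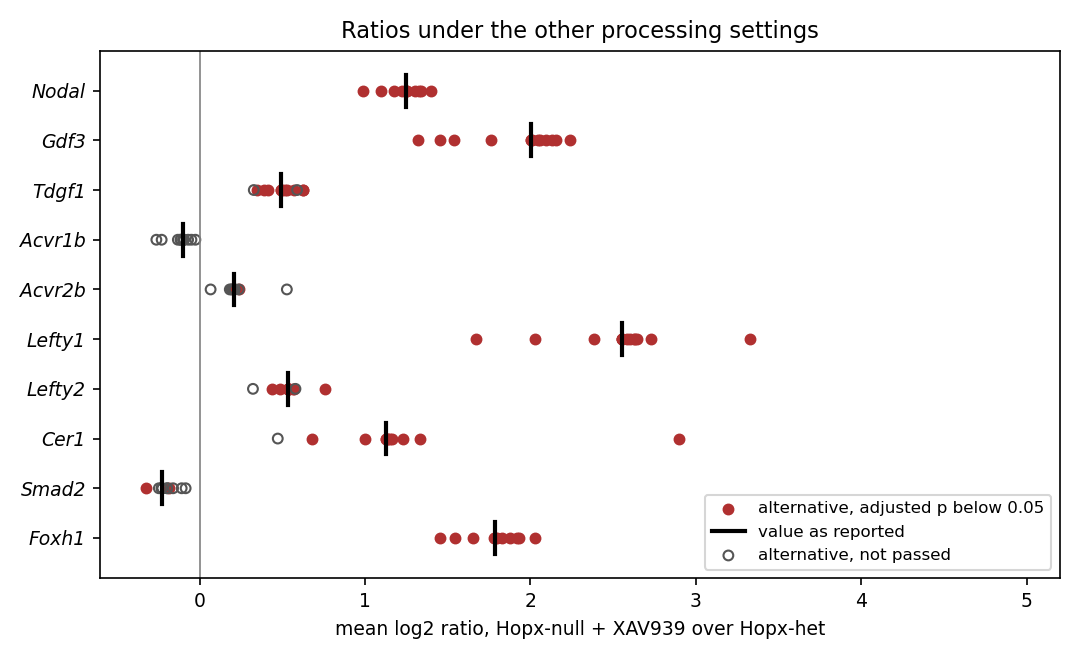
Mean log2 ratio (x axis) of each member under the alternative settings (circles, filled where the adjusted p was below 0.05) and as reported (black bar), without the setting that uses replicate 3 as labelled. Nodal, Gdf3, Lefty1 and Foxh1 passed in all 14 settings shown (the reported one included), Tdgf1 and Lefty2 in 12 of 14 and Cer1 in 12 of 13.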

How the data were processed

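Two-colour array signals were analysed for 3 arrays. The authors extracted the deposited spot and background values, median pixel intensity in each channel, with Agilent Feature Extraction (11.5.1.1 per the file headers, 8.5.1.1 in the submitters' processing notes; design 026655, build mm9). Their software also deposited a log10 ratio, red (Cy5) over green (Cy3), after its own dye normalization. The authors' processed table was taken to hold log2 ratios, since its values had regression slopes of 0.739, 0.891 and -0.875 on the scanner log2 ratios (r = 0.927, 0.978 and -0.969), against 2.45, 2.96 and -2.91 on log10 ratios; its normalization and centring are not stated and its column medians were 0.086, -0.08 and 0.053.

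Signals were corrected with normexp (offset 50), with backgrounds marked as outliers replaced by the channel median, and normalized by loess within arrays in limma 3.58.1 (R 4.3.3). Spots marked as outliers were left out. Channel signals were then scaled with Aquantile; their sums for marker lists are on the linear scale. A probe was tested where 1 channel or both were well above background on all 3 arrays, and a gene was taken from its brightest such probe (14705 genes, 24376 probes). Limma's moderated test had 8.65 degrees of freedom, and p-values were adjusted by Benjamini and Hochberg over all genes or all probes. A fold above a detection limit sets the brighter group's mean against the mean of that limit over the arrays. On each array the limit is the lowest signal well above background in the dimmer group, or the gene's own signal there if higher. The number of arrays limits the precision (median SD 0.166). The test was checked on simulated data. Replicate 1 was on one slide and replicates 2 and 3 on another. Each array is its own pair.

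The members, lists and settings were chosen with earlier results of these data known. Named were all members with every probe, all other ligands, receptors, co-receptors and Smads of the pathway, the 3 largest ratios and the untested genes of each other role, and the 2 largest ratios of each marker list. Also named were Smurf2, whose probes differed, and the neural and definitive endoderm markers that did not pass. Accessions gave 28025 of 39429 probes a symbol.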

Additional observations from a re-analysis of the deposited data

How the results depend on the processing

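The number of members that rose was 7 here. It was 5 to 8 over the alternatives other than replicate 3 as labelled, where it was 0. Leaving out each replicate gave 6 to 8 members higher, 0 to 1 lower, 8 to 9 member probes higher and 0 to 1 lower, 3505 to 5278 genes higher and 3711 to 5340 lower, and 8 to 12 pathway genes higher and 14 to 17 lower.

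With marked backgrounds kept, 2667 genes were higher and 2258 lower, 4 and 9 of the pathway list, and 4 member probes higher. With median centring the numbers were 3034 and 2019, 5 and 7, and 5. In the authors' values 6 pathway genes were higher. With replicate 3 as labelled all these counts were 0. With the slide as a random block (estimated correlation -0.699, from 2 residual degrees of freedom a gene) 1 member and 1 member probe, Smad2, fell. In that setting 5670 genes were higher and 5988 lower, against 4635 and 4849 in the reported fit.

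Signs turned as follows; the cause was not tested. With replicate 3 as labelled the Tdgf1 probes that did not pass were at -0.194 and -0.016, Acvr2a at 0.142, Dand5 at -0.058, Tgif2 at -0.054, Skil at 0.019, Trim33 at 0.055, Smurf2 at 0.129, Ppm1a at 0.051 and Eomes at -0.027. The dimmer of those Tdgf1 probes was at -0.005 in the authors' values. Smad4, at 0.04 here, was at -0.032 with the slide block and ranged from -0.079 to 0.265 when each replicate was left out. Ppm1a, at -0.016 here, was at 0.036 with backgrounds kept, 0.022 with the Feature Extraction ratio, 0.109 with median centring and 0.012 with the slide block, and ranged from -0.104 to 0.03 when each replicate was left out.

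Cer1 was close to background in the heterozygous cultures and could not be tested where both channels had to be well above it. Among the pathway genes Gsc and Inhbb could not be tested there either. The other alternatives were half-floored or no background subtraction, no filter and the mean over probes.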

Other observations

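Markers of the naive state of stem cells, which precedes the epiblast state in which Nodal signalling is active, did not move as one. Tfcp2l1 (-2.89 ± 0.11), Klf4 (-2.55 ± 0.10) and Zfp42 (-1.19 ± 0.23) fell, and Esrrb (0.98 ± 0.21) and Klf2 (0.89 ± 0.28) rose, all by limma at an adjusted p of at most 0.00025 (SD, n = 3). The summed signal of the 5 genes was 4870 to 5509 in the null cultures with inhibitor and 6635 to 6735 in the heterozygous ones.

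Of 20 listed genes with several tested probes, Nanog alone had probes called in opposite directions.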
